A study of Mus musculus with 6 samples.

Results

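The peaks described here lie in or nearest to 10 genes of dendritic cells and of MHC class II antigen presentation in mouse bone marrow. The genes are Ciita, Cd74, H2-Aa, H2-Ab1, Siglech, Tcf4, Spib, Itgax, Batf3 and Zbtb46. A peak was taken where its summit lay inside the span of a member or where that span was the nearest of 21887 protein-coding genes on mm10. The rule gave 35 of 47233 peaks for Smc3 het and 7 of 14830 for Smc3 wt.

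Open chromatin was measured with ATAC-seq, an assay that cuts and tags accessible DNA with Tn5 transposase, in bone marrow cells depleted of mature lineages and labelled HSPC (hematopoietic stem and progenitor cells). Both groups carried inv(16), the inversion that in human acute myeloid leukemia fuses CBFB to MYH11, and both went through viral transduction and induction with tamoxifen. Smc3, which encodes a cohesin ring subunit, was D/+ in the 3 Smc3 het libraries and +/+ in the 3 Smc3 wt libraries. The sources used here do not give age, the antibodies of the depletion or the construct. The data analysed are 1 list of peaks per genotype, so no value below has a replicate check, none carries a p-value, and read depth is unknown. In such bulk samples, fewer cells of a type and less accessibility per cell cannot be told apart.

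MHC class II molecules are pairs of an alpha and a beta chain that display peptides to CD4 T cells, and dendritic cells, B cells and macrophages carry them. The coactivator CIITA binds no DNA itself. It docks on RFX, CREB and NF-Y factors at the W/S, X and Y boxes upstream of class II genes and switches them on. Dendritic cells arise in the marrow along a plasmacytoid branch, which depends on TCF4 and SPIB, and a conventional branch, whose cells carry ZBTB46 and partly depend on BATF3.

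Of the promoters, 4 are printed first, to show the letters under their peaks. They are the 250 bases before the start sites of H2-Aa and, from a wider list of pathway genes, H2-Eb1 and H2-DMb1, each overlapped by a Smc3 het peak and by no Smc3 wt peak, and those of Itgax, overlapped in the same way. The last 3 were picked for printing after the peaks over them were seen. Of the 18 pathway genes with a promoter in the table, 2 (11.1%) were overlapped in this way, against 11.0% of all protein-coding genes, so the share is that of the background. Sequences are from RefSeq on GRCm38.p6, the assembly of mm10, and run 5′ to 3′ on the strand of the gene. Capitals mark the bases inside the Smc3 het peak.
H2-Aa (chr17:34287824-34288073, minus strand): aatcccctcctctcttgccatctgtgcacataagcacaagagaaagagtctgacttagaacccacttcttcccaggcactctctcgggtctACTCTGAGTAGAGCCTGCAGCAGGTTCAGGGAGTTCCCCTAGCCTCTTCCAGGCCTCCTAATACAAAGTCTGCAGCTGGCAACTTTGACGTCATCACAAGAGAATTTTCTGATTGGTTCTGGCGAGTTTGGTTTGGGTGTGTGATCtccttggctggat
H2-Eb1 (chr17:34305617-34305866, plus strand): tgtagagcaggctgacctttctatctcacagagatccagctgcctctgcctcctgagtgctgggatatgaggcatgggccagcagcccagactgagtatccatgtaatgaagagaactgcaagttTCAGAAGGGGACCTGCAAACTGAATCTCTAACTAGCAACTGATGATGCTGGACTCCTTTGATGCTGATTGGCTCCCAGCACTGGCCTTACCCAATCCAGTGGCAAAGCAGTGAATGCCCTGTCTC
H2-DMb1 (chr17:34152941-34153190, plus strand): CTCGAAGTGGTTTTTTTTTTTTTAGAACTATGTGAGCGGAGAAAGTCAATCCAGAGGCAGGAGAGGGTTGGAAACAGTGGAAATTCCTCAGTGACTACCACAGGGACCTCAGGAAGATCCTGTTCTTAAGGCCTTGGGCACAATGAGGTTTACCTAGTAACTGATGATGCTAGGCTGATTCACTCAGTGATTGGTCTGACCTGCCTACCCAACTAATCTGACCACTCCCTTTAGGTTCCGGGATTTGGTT
Itgax (chr7:128129300-128129549, plus strand): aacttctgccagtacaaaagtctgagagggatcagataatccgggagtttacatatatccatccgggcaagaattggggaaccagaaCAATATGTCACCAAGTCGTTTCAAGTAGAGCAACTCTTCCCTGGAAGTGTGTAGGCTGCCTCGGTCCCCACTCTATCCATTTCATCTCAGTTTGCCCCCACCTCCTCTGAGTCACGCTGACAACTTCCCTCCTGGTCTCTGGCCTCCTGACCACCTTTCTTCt

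In these letters the peak covered 146 of the 250 bases at H2-Aa, 125 at H2-Eb1, all 250 at H2-DMb1 and 162 at Itgax. The letters CCAAT, the core of the Y box to which NF-Y binds, stood on the opposite strand (read as ATTGG in the lines above) from 48 bases upstream of the start site of H2-Aa, 59 bases upstream at H2-Eb1 and 61 bases upstream at H2-DMb1. All 3 matches lay inside the Smc3 het peak. These promoters were printed for the peaks over them, so a match inside a peak is no separate result. H2-Eb1 also held CCAAT on its own strand, from 35 bases upstream and inside the peak. H2-Aa alone of the 6 members with a promoter in the table also held TGACG, the core of CREB sites, on both strands 74 and 71 bases upstream, inside the peak as well. At Itgax, GGAAGT, letters of ETS factors, began 121 bases upstream and on the opposite strand 41 bases upstream, and TGANTCA, letters of AP-1 and BATF factors, began 56 bases upstream, all inside the peak. TGANTCA also lay inside the peak at H2-DMb1, 75 bases upstream. Of the members, Batf3 and Siglech held GGAAGT and Zbtb46 TGANTCA, outside any peak. TGTGGT, the core of RUNX sites, was also searched. It lay inside the H2-DMb1 peak, on the opposite strand 154 bases upstream, and outside the Itgax peak, 13 bases past the start site. Siglech also held TGTGGT, outside any peak. CACCTG, letters of E proteins, was in none of the printed promoters. Of the members, Zbtb46 and Siglech held CACCTG, outside any peak.

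Among the 21263 promoters of protein-coding genes searched, each 300 bases long with 50 after the start site and with chromosome 18 left out, 38.2% held CCAAT on either strand, 23.6% TGACG, 24.8% GGAAGT and 6.99% TGANTCA. On the strand opposite to the gene alone, 22.8% held CCAAT. It was found there in all 8 class II chain and peptide-loading genes with a promoter in the table (H2-Aa, H2-Eb1, H2-Eb2, H2-DMa, H2-DMb1, H2-DMb2, H2-Oa and H2-Ob), 43 to 198 bases upstream, and lay inside a Smc3 het peak in 3 of the 8. At H2-DMa it stood at a start site other than the 1 under that gene's peak. Of the members, Itgax and Spib also held CCAAT, outside any peak. A match of letters is a description of the window and not a binding site.

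All 10 genes had at least 1 peak in the Smc3 het list, whereas 3 of the 10, H2-Ab1, Tcf4 and Batf3, had any in the Smc3 wt list. Of the 35 Smc3 het peaks, 28 met no Smc3 wt peak by 1 bp or more and are called het-only below. That is 80.0% (exact Clopper-Pearson 95% interval 63.1 to 91.6, counting error only) against 69.8% of all Smc3 het peaks, a background that lies inside the interval. The other 7 met all 7 Smc3 wt peaks, so 0 Smc3 wt peaks lacked a counterpart, against 2.92% over that whole list. Over all protein-coding genes, 73.3% had a Smc3 het peak, 47.0% a Smc3 wt peak and 56.4% a het-only peak. Het-only peaks without any Smc3 wt peak were found at 7 of the 10 genes and at 26.3% of all genes. The median number of Smc3 het peaks per gene was 3 for the 10 genes and 1 over all genes.

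**Figure D1:**
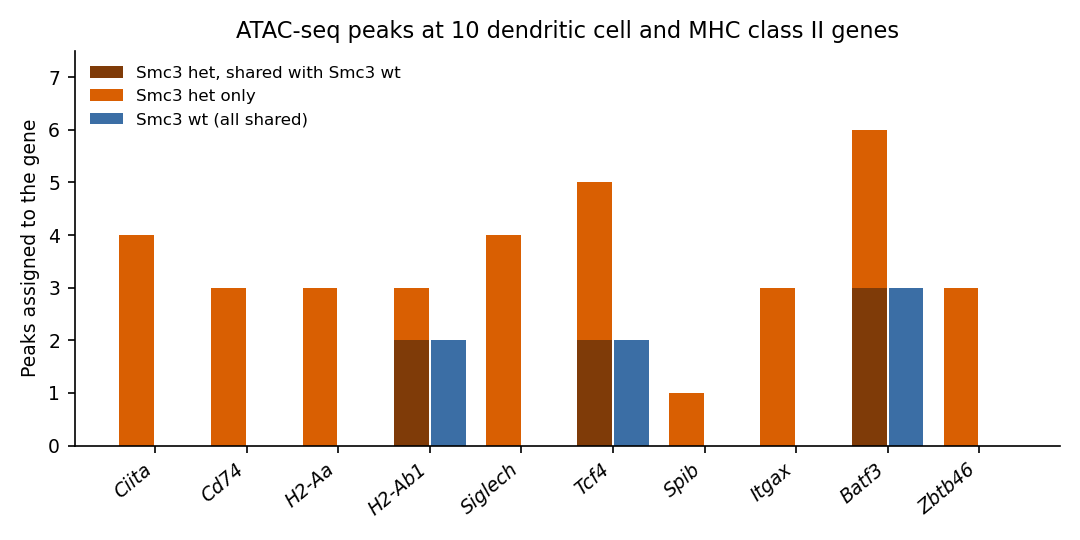
Number of peaks assigned to each of the 10 genes (vertical axis) in the Smc3 het list, split into shared and het-only peaks, and in the Smc3 wt list. Only H2-Ab1, Tcf4 and Batf3 have Smc3 wt bars, of 2, 2 and 3 peaks, and each gene has between 1 and 6 Smc3 het peaks.

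Each peak carries the authors' fold over background at its summit and a -log10 q from their peak caller. Both describe a peak within its list only. The pileup, the number of reads or fragments stacked over the summit, was recovered from fold and p-value. The commonest background pileup was 10.6 for Smc3 het against 8.65 for Smc3 wt, so folds of the lists are on different bases and are set side by side without a test.

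Ciita, the class II coactivator (chromosome 16, 10480014 to 10531064), had 4 Smc3 het peaks, all inside the gene and all het-only. Their summits lay 17477, 9657, 5941 and 3929 bp before the upper end of the gene. The -log10 q was 3.21, 7.51, 2.67 and 1.75 in the same order. The pileup was 28, 37, 27 and 25. The second of the 4 peaks stood above the rest, and the last was near the weakest that the list holds (-log10 q 1.30). The nearest Smc3 wt peak to any of them was 15683 bp away.

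Cd74, the invariant chain that escorts class II molecules and blocks their groove (chromosome 18, 60803849 to 60812652), had 3 Smc3 het peaks, all het-only. A pair lay inside the gene, 2011 and 3619 bp from its lower end, with -log10 q of 8.06 and 6.56 and pileups of 46 and 44. The other lay 8529 bp outside the same end, with -log10 q 3.63 and a pileup of 29. The recovered local background was 14.7 and 15.4 under the pair inside the gene, above the commonest background of the list, and the fold there was 2.99 and 2.75. The inner pair was thus higher in pileup than the outer peak on a higher local background.

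H2-Aa, the alpha chain of the I-A class II molecule (chromosome 17, 34282744 to 34287823), had 3 Smc3 het peaks, all het-only. The summit of the first, at 34287837 to 34287982, lay 99 bp upstream of the start site in the promoter printed above, with a fold of 3.10, -log10 q 6.47 and a pileup of 35. The others lay 5919 and 8373 bp upstream, with -log10 q of 4.88 and 8.06. All 3 lay on the upstream side, none inside the gene, and the highest -log10 q belonged to the farthest.

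H2-Ab1, the beta chain of the same molecule (chromosome 17, 34263227 to 34269418), had 3 Smc3 het and 2 Smc3 wt peaks, and H2-Aa had none of the latter. A shared peak lay over its lower end, at 34263118 to 34263457 in Smc3 het with a fold of 3.14, -log10 q 8.01 and a pileup of 42, and for Smc3 wt at 34263118 to 34263365 with values of 3.59, 8.09 and 36. A further shared peak lay outside the gene, 5432 bp from that end, with -log10 q 18.4 and a pileup of 57 in Smc3 het and 3.49 and 26 in Smc3 wt. The third Smc3 het peak, 1718 bp inside the gene with -log10 q 2.99, was het-only, and it was the 1 of the 28 such peaks within 5 kb of a Smc3 wt peak (1401 bp). The order of the shared peaks differed between the lists, since the outer one was the more significant in Smc3 het and the less significant in Smc3 wt. The outer shared peak lies inside the lncRNA gene Gm20506, which the rule leaves out.

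Along the class II region from H2-Ob to H2-Eb2 (chromosome 17, 34238905 to 34341410), 11 Smc3 het peaks and 2 Smc3 wt peaks had their summits, and 9 of the 11 were het-only, against 69.8% of all Smc3 het peaks. The -log10 q of the 11 ran from 2.99 to 18.4 with a median of 6.47, and 10 of the 11 were below 8.92, where the het-only share of the whole list, split into 5 equal bands by -log10 q, was 86.9% or more. None of the 7 Smc3 het peaks at H2-Aa, H2-Eb1 and H2-Eb2 within it had a Smc3 wt counterpart, and both Smc3 wt peaks lay beside H2-Ab1.

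**Figure D2:**
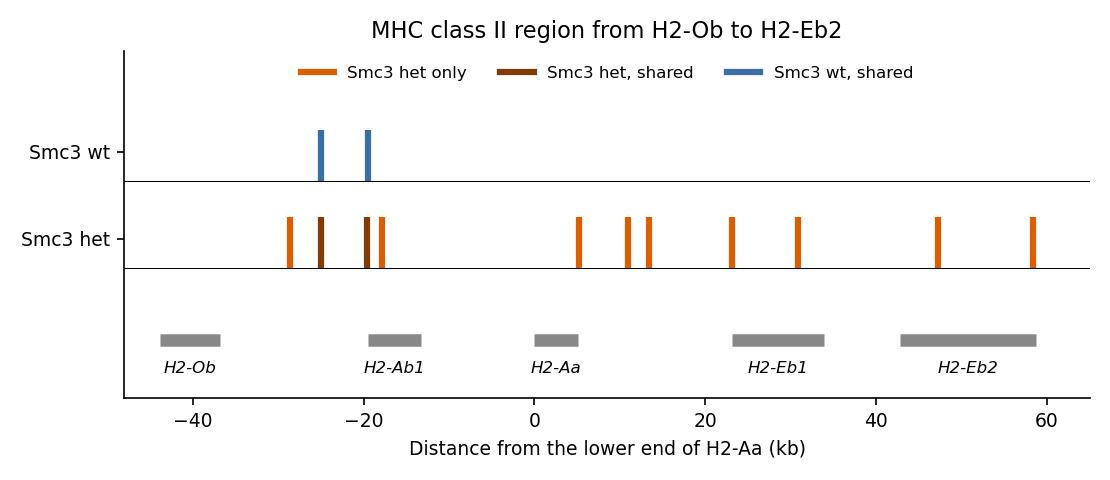
Map of the class II region, with distance from the lower end of H2-Aa in kb on the horizontal axis, gene spans as grey bars and each peak summit as a tick of fixed height in its list. The 2 Smc3 wt ticks stand beside H2-Ab1, and the 11 Smc3 het ticks run across the whole region, 9 of them het-only.

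The rest of the pathway was taken from a list of 19 further genes. They had 48 Smc3 het peaks, of which 33 (68.8%, interval 53.7 to 81.3) were het-only, and 15 Smc3 wt peaks, none without a counterpart. This share is near the background of 69.8%. Grouped by role, after their values were seen, the genes differed in the strength of their peaks. The 7 genes for other class II chains and for peptide loading had 17 Smc3 het peaks with a median -log10 q of 6.47, and 13 of them were het-only. Among these, H2-Eb1, the beta chain of I-E, had a het-only peak 46 bp upstream of its start site with -log10 q 3.63. H2-DMb1, a chain of the H2-DM editor that exchanges peptides on class II molecules, had such a peak 22 bp upstream with 6.26. Its partner gene H2-DMa instead had 2 shared peaks, the nearer 188 bp upstream of a start site, with -log10 q 19.7 in Smc3 het and 6.01 in Smc3 wt. H2-Oa, a chain of the H2-DO inhibitor of H2-DM, had 4 het-only peaks of 5.

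The 7 genes for the DNA-binding factors on which CIITA docks had 10 Smc3 het peaks with a median -log10 q of 46.2, and 3 of the 10 were het-only. Rfx5, the DNA-binding RFX subunit, had 1 shared peak with its summit 27 bp upstream of a start site and -log10 q 49.5 in Smc3 het and 24.2 in Smc3 wt. Rfxap and Rfxank, the other RFX subunits, each had a shared peak, with 46.3 and 48.6 in Smc3 het and 18.5 and 22.6 in Smc3 wt. Nfyb, Nfyc and Creb1 also had shared peaks at a start site. Nfya had no peak assigned, but peaks of both lists overlapped a promoter of it in the table. Of the 8 class II chain and peptide-loading genes with a promoter in the table, H2-Aa, H2-Eb1 and H2-DMb1 had a promoter peak in Smc3 het and not in Smc3 wt. H2-DMa had one in both lists, and the other 4 had none. Over all protein-coding genes with a promoter there, 49.5% had one in Smc3 het, 38.6% in Smc3 wt and 11.0% in Smc3 het only. With so few genes, grouped after their values were seen, the 2 groups were not compared by a test. H2-Ab1 has no promoter in the table and is not among the 8, and the peak over its lower end was shared.

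The 5 genes for antigen processing and turnover had 21 Smc3 het peaks, 17 of them het-only, and 16.5 would be at the shares of the whole list in its bands of significance. Marchf1, a ubiquitin ligase that takes class II molecules off the surface, had 8 het-only peaks of 9 and Lgmn, a lysosomal protease, 6 of 8. The strongest at Lgmn, with -log10 q 44.3, and the 1 over its start site, with 20.3, were shared. Ctss, the protease that trims the invariant chain in dendritic cells, had 2 peaks, both het-only, and Ifi30 had none in either list.

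Siglech, a surface receptor of plasmacytoid dendritic cells (chromosome 7, 55768154 to 55779448), had 4 Smc3 het peaks, all het-only and all weak. The -log10 q was 2.41, 2.41, 2.80 and 3.21, and the pileup 26, 26, 27 and 28. No peak lay over the start site. A first peak was 66 bp inside the far end of the gene, the next 5336 bp beyond that end, and the others 100890 and 169158 bp upstream, where an snRNA gene, Gm26482, is nearer. All 4 were below the 20th percentile of the list by -log10 q, the highest at 19.4.

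Tcf4, the E protein that directs plasmacytoid dendritic cells and is also active in many other tissues (chromosome 18, 69343429 to 69687967), had 5 Smc3 het and 2 Smc3 wt peaks. A shared peak lay 967 bp inside the lower end of the gene, at 69344092 to 69344543 in Smc3 het with a fold of 7.49, -log10 q 44.0 and a pileup of 86, and in Smc3 wt with 5.90, 23.5 and 57. The other shared peak lay inside the gene, 94632 bp from the upper end, with -log10 q 12.2 in Smc3 het, 6.03 in Smc3 wt and summits 1 bp apart. The 3 het-only peaks had -log10 q of 7.51, 3.21 and 2.04, and the first 2 of these lay over 100 kb outside the gene, at 113661 and 146594 bp. Nearer to those 2 are genes that the rule leaves out, the pseudogene Gm4842 and the lncRNA gene Gm31294 in the same order. Both shared peaks were thus stronger than each of the het-only ones.

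Spib, an ETS factor of plasmacytoid dendritic cells and B cells (chromosome 7, 44525995 to 44532087), had 1 peak, which was het-only. It lay inside the gene at 44527917 to 44528273, 3960 bp past the start site, with a fold of 3.39, -log10 q 10.1 and a pileup of 47, the highest pileup among the 28 het-only peaks at these genes.

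Itgax, the CD11c integrin chain of dendritic cells and some macrophages (chromosome 7, 128129526 to 128150657), had 3 Smc3 het peaks, all het-only. The summit of 1 lay 18 bp upstream of the start site, at 128129387 to 128129548, in the promoter printed above, with a fold of 2.32, -log10 q 2.75 and a pileup of 29. A stronger peak lay 4271 bp past the start site, inside the gene, with 3.73, 11.5 and 46, the highest -log10 q among the 28. The last lay 4680 bp upstream, where a pseudogene, Gm45700, is nearer, with -log10 q 1.35, at percentile 0.179 of the list. The intragenic site thus exceeded the promoter site, and the upstream site was close to the limit of detection.

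Batf3, an AP-1 family factor of cross-presenting conventional dendritic cells (chromosome 1, 191098414 to 191108943), had the most peaks, 6 for Smc3 het and 3 for Smc3 wt, and the strongest of all. The 3 shared peaks lay beyond the far end of the gene, 12054, 17161 and 24075 bp from it. Their -log10 q was 109, 27.2 and 12.4 in Smc3 het and 43.2, 17.5 and 11.8 in Smc3 wt, in the same order in both lists. The pileups were 162, 71 and 48 in Smc3 het and 84, 52 and 41 in Smc3 wt. The summits of the lists were 2, 146 and 1 bp apart. The strongest, at 191120934 to 191121170, had a width of 237 bp for Smc3 het and 208 bp for Smc3 wt, the narrowest width in the Smc3 wt list, and stood at percentile 99.2 and 93.9 of its lists. These 3 sites lie in or beside the lncRNA genes Gm46178 and Gm31640, so their link to Batf3 is by distance among protein-coding genes only.

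The 3 het-only Batf3 peaks were those closest to the gene. They lay 931 bp upstream of the start site, 4647 bp past it inside the gene, and 2285 bp beyond the far end. Their -log10 q was 7.66, 9.18 and 3.70. No peak of either list overlapped the 300 bases of the promoter in the table.

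**Figure D3:**
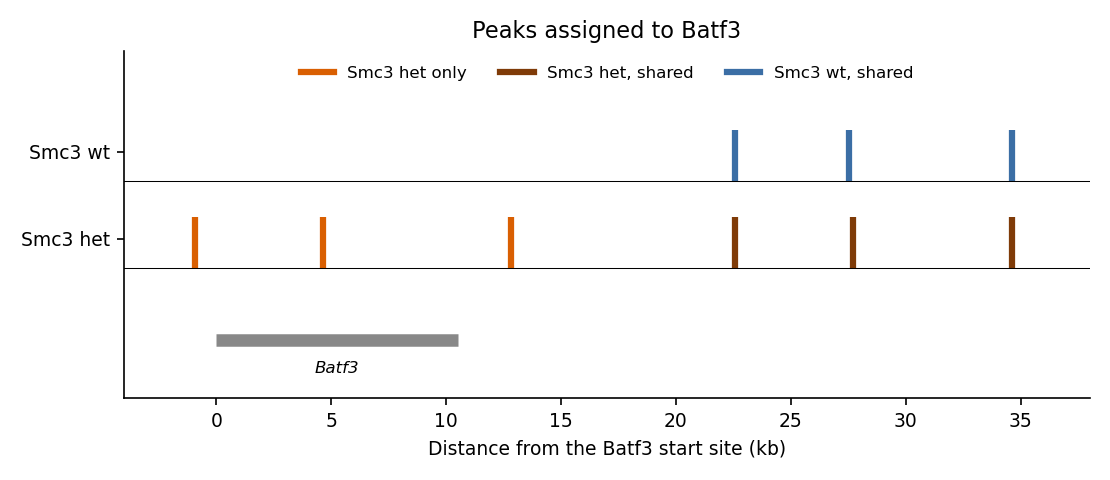
Peaks assigned to Batf3, with distance from its start site in kb on the horizontal axis, the gene span as a grey bar and each summit as a tick of fixed height in its list. The 3 ticks nearest to the gene are het-only, and the 3 farther downstream are present in both lists.

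Zbtb46, a zinc finger factor that marks conventional dendritic cells (chromosome 2, 181371009 to 181493262), had 3 Smc3 het peaks, all inside the gene and het-only. They lay 13123 bp past the start site in the table and 35813 and 59329 bp upstream of it, still within the span of the gene. The -log10 q was 6.98, 4.71 and 9.18, and the pileup 36, 34 and 40. The second was the lowest in both, and no peak was at the start site in the table.

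Peaks over start sites could be counted for some members. Of the 6 members with a promoter in the table (H2-Aa, Siglech, Spib, Itgax, Batf3 and Zbtb46), 2 were overlapped by a Smc3 het peak and 0 by a Smc3 wt peak. Over the 17492 protein-coding genes with a promoter there, the shares were 49.5% and 38.6%, and 11.0% were overlapped in Smc3 het and not in Smc3 wt. Of the 35 Smc3 het peaks 18 lay inside a member, 16 of them het-only, and 17 outside, 12 of them het-only. Within 1 kb of a gene end lay 6 of the 35, at H2-Aa, H2-Ab1, Siglech, Tcf4, Itgax and Batf3.

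The 28 het-only peaks were low within their list, and the 7 shared peaks were higher. The median -log10 q was 4.20 (1.35 to 11.5) for the 28 and 18.4 (8.01 to 109) for the 7. The median pileup was 31.5 (23 to 47) and 57 (42 to 162). Over the whole Smc3 het list, het-only peaks had a median -log10 q of 4.63 and shared peaks 24.7. Of the 28, 12 were narrower than 208 bp, the width of the narrowest Smc3 wt peak, and so were 36.3% of all het-only peaks. The narrowest Smc3 het peak had 138 bp, so the lists differ in their lowest width, and the reason was not tested. The median distance of the 28 to the nearest Smc3 wt peak was 29654 bp, and this distance was not taken over all het-only peaks.

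**Figure D4:**
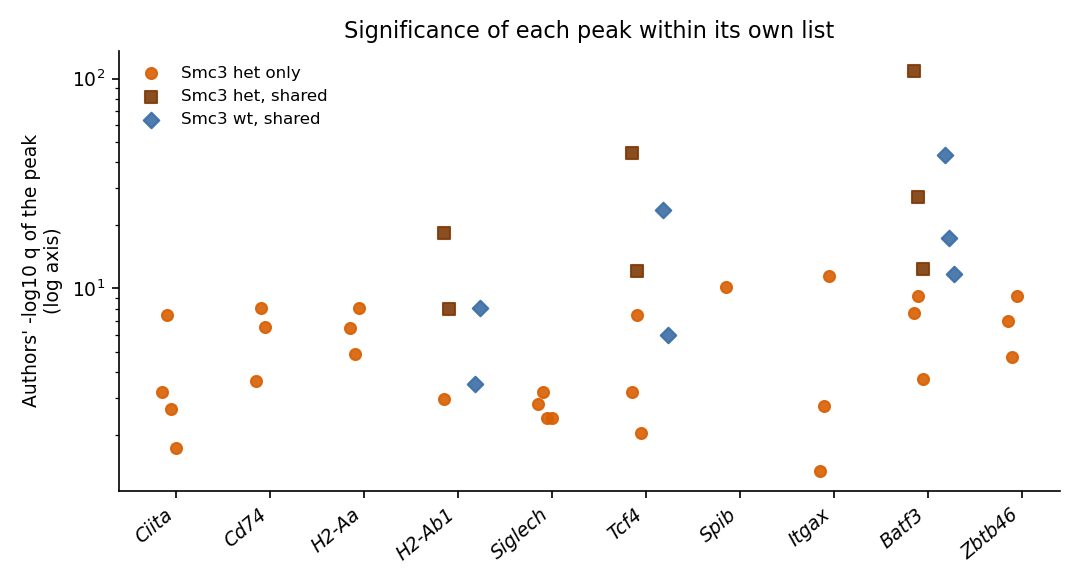
The authors' -log10 q of every peak at the 10 genes (vertical log axis), with circles for het-only peaks, squares for shared Smc3 het peaks and diamonds for Smc3 wt peaks. Circles lie between 1.35 and 11.5, and squares, at H2-Ab1, Tcf4 and Batf3, reach 109.

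The share of het-only peaks was then read at equal significance. The whole Smc3 het list was split into 5 bands of equal size by -log10 q. Over all peaks the het-only share was 8.94%, 59.4%, 86.9%, 95.3% and 98.5% from the most to the least significant band. Of the peaks at the 10 genes, 0 of 3, 4 of 7, 8 of 9, 4 of 4 and 12 of 12 were het-only. With the shares of the whole list in each band the 35 peaks would hold 27.9 het-only peaks, and they held 28. For the class II chain and loading genes outside the members the numbers were 13.0 and 13, and for the class II transcription factors 2.77 and 3. When the Smc3 het list was limited to its 14830 most significant peaks, the length of the Smc3 wt list, 6 peaks at the 10 genes were left and 0 of them lacked a counterpart, against 23.9% of all peaks so limited. By bands, then, the number of het-only peaks at these genes was close to that of the whole list, and the 6 peaks left at equal length are too few to compare.

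**Figure D5:**
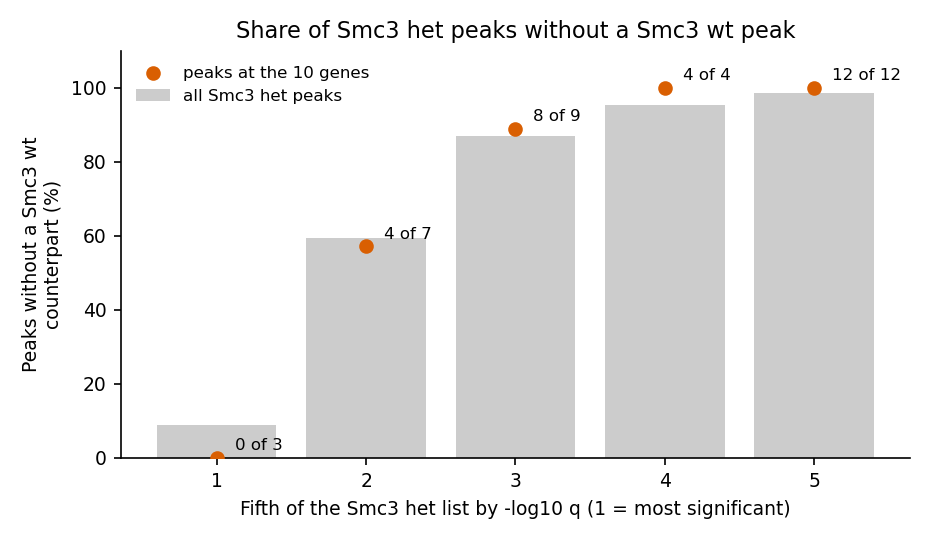
Share of Smc3 het peaks without a Smc3 wt counterpart, in percent, in 5 bands of the list by -log10 q, with grey bars for all peaks and points with counts for the peaks at the 10 genes. The points follow the bars, from 0 of 3 in the first band to 12 of 12 in the last.

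Markers of the dendritic cell branches and of other cells that carry class II were set beside the members. Over all protein-coding genes, 73.3% had a Smc3 het peak and 47.0% a Smc3 wt peak, and 69.8% of all Smc3 het peaks were het-only. Of 6 plasmacytoid markers (Siglech, Tcf4 and Spib of the members, with Bst2, Ly6d and Ccr9), 5 had a Smc3 het and 2 a Smc3 wt peak, and Ly6d had none. All 6 conventional markers (Zbtb46, Batf3 and Itgax, with Xcr1, Clec9a and Flt3) had a Smc3 het peak and 1, Batf3, a Smc3 wt peak. Of the B cell markers reported, 4 had a Smc3 het peak, 7 peaks in all, and 0 had a Smc3 wt peak, and Cd79a, Cd79b and Ms4a1 had none in either list. All 8 monocyte and macrophage markers had Smc3 het peaks, 46 in all with 40 het-only, and 4 had Smc3 wt peaks. All 6 stem and progenitor markers, which the label HSPC calls for, had Smc3 het peaks, 47 in all, and 4 of them had 10 Smc3 wt peaks. The part of such cells in the peaks at the 10 genes was not tested.

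A list of 26 further dendritic cell genes had 135 Smc3 het peaks, 112 of them (83.0%, interval 75.5 to 88.9) het-only, and 23 Smc3 wt peaks, none without a counterpart. The interval lies above the background of 69.8%. With the shares of the whole list in each band of significance, 103.6 of the 135 would be het-only. The same reckoning gave 35.8 for the 40 het-only peaks of the monocyte and macrophage markers and 32.3 for the 37 of the stem and progenitor markers. It gave 14.7 for the 17 of the conventional markers, 6.17 for the 7 of the B cell markers and 11.1 for the 11 of the plasmacytoid markers. The conventional and plasmacytoid markers are partly members and partly among the 26. Counts above the reckoning were thus also found in lists of other cells, and for the plasmacytoid markers the count was about equal to it. No spread was taken for these differences, so they do not set 1 cell type apart from another. The marker lists are short, and peaks at 1 gene are not independent. The genes with most het-only peaks were Zeb2 (18 of 22), a repressor needed for plasmacytoid cells, Id2 (16 of 21), an inhibitor of E proteins that favours the conventional branch, and Runx2 (12 of 15), which serves plasmacytoid cells' exit from the marrow. Of the 26 genes, 23 had such a peak and 11 had a Smc3 wt peak. Neighbouring parts of the genome add to these numbers, since some of the peaks assigned to Zeb2 lay over 1 Mb from it.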

How the data were processed

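The 6 libraries, 3 per genotype by their titles, were summarised by the authors into 1 peak list per genotype without a header. The peak names tie each list to its genotype. Bowtie2 and MACS2 are named with mm10, per the submitters' processing notes. The sources used here do not give versions, filters, any Tn5 shift, a control or the pooling of libraries, which settle how many peaks a list holds. The deposited integer score is 10 times -log10 q. The deposited fold is a ratio of summit over background within the list. The -log10 p and its q-value counterpart were deposited as the peak caller wrote them.

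Overlap of 1 bp or more and the nearest gene span (RefSeq, GRCm38.p6, chromosomes 1 to 19, X and Y) were computed with scipy 1.17.1, pandas 2.3.3 and numpy 2.4.6 under Python 3.11.15, and drawn with matplotlib 3.10.9. A summit inside or equally near to several genes counted for each. The pileup N was solved from fold = (N + 1) / (background + 1) and the Poisson tail, within 0.01 of the deposited -log10 p for 99.7% of Smc3 het and 99.4% of Smc3 wt peaks. These functions were tested on simulated data. Start sites came from RefSeq promoters, of which 6 of the 10 members and 18 of the 19 pathway genes had an entry. Intervals cover counting error only, and peaks at 1 gene are not independent. The members, lists and groups of genes were chosen with earlier results of these data known. The text names all members, the 3 genes of each further list with most peaks lacking a Smc3 wt counterpart (het-only), and others named after their values were seen. A B cell marker of the lists is not reported here. Alternatives were a stricter threshold, other overlap rules, equal list length and other gene assignments.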

Additional observations from a re-analysis of the deposited data

How the results depend on the processing

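The 7 alternatives left the 10 genes with fewer or as many het-only peaks, never more. Requiring an overlap of 50% of the shorter peak, counting peaks within 500 bp as shared, or using the middle of the peak changed none of the counts of peaks at the 10 genes, while the share over all Smc3 het peaks was 70.1%, 68.0% and 69.8%. With only peaks at -log10 q of at least 5, 19 Smc3 het peaks remained, 13 of them (68.4%) het-only, against 61.5% of all Smc3 het peaks, and Siglech had 0. The limit was set on both lists, and 1 of the 13 is the outer H2-Ab1 peak (-log10 q 18.4). That peak was shared as reported and counts as het-only here because its Smc3 wt partner (3.49) was removed. At equal list length 6 Smc3 het peaks remained with 0 het-only, which is 0% against 23.9% of all peaks, and 1 Smc3 wt peak, the one over the end of H2-Ab1, lost its counterpart because the limit removed it. With summits within 5 kb of the gene, 24 Smc3 het peaks (20 het-only, 83.3%) and 4 Smc3 wt peaks were counted. This limit removed peaks of 1 or both lists at Cd74, H2-Aa, H2-Ab1, Siglech, Tcf4 and Batf3, and it also takes in peaks nearer to a neighbouring gene. With the nearest gene of any class, 26 Smc3 het peaks (23 het-only, 88.5%) and 3 Smc3 wt peaks were counted. For both of these gene assignments the share over all Smc3 het peaks stayed at 69.8%. By gene, the het-only number moved by over 1.5 times at 4 genes with the stricter threshold, 10 at equal length, 3 with 5 kb and 2 with any class. No paired analysis was possible because the files hold 1 list per genotype and no value per library, and for the same reason no library could be left out. The number of peaks that a list can hold follows its depth, which is unknown, so a site missing from the Smc3 wt list was not detected there and may still be open.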
